A study of Mus musculus with 12 samples.

Results

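The comparison described here is day 14 against day 1 in mouse cells labelled as Nr4a3 knockout (KO) smooth muscle of the aorta. It rests on the 6 KO libraries, 3 for each day, of the 12 libraries of the series. The members were taken by their labels and table: the 3 KO columns of the table of day 14 and the 3 KO columns of the table of day 1, over the gene names that both tables hold. The cells carry the genotype label NR4A3KO and the labels call them primary VSMC (vascular smooth muscle cells) of the aorta. The protocols give 10 mM beta-glycerophosphate (β-GP) in the DMEM/F12 medium with serum and antibiotics of all groups, at both days and in both genotypes. Strain and age of the mice: not given in the sources used here. The treatment label reads β-GP for KO and none for wild type (WT), and which of these statements holds for the WT cells cannot be told from the labels. The WT groups, also with 3 libraries at day 1 and 3 at day 14, are used here only to ask whether a change in KO differed from that in WT. The labels do not say which part of the gene was deleted, how, or whether the 3 replicates are separate animals or cultures. If they are not, the p-values speak only of the spread among libraries and not of biological variation. Each day is 1 table, so the day and anything particular to a table cannot be told apart.

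NR4A3, also known as NOR-1, is an orphan nuclear receptor that is induced quickly by growth factors and inflammatory signals, together with its relatives NR4A1 and NR4A2. Beta-glycerophosphate is split by alkaline phosphatase and so supplies phosphate, which cultured smooth muscle cells can deposit as mineral. In that process the cells are known to lose contractile proteins and to gain proteins of bone and cartilage, while pyrophosphate and matrix Gla protein hold mineral back.

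The KO libraries held 17143281 to 20091307 counts at day 1 and 14369933 to 18797157 at day 14. The share of mitochondrial transcripts was 4.18% ± 0.52 (SD, n = 3) at day 1 and 4.61% ± 0.19 at day 14, and that of ribosomal protein genes 3.57% ± 0.29 and 2.05% ± 0.05. Replicates within a KO group differed by more than counting noise, with a chi-square per gene of 7.36 to 18.9 at day 1 and 3.09 to 6.94 at day 14. Across genes, log2 CPM (CPM, the counts of a gene scaled to a common library total) correlated at a median r of 0.982 within KO day 1 and 0.992 within KO day 14. Between the days of KO the median r was 0.921 over 9 pairs of libraries. The KO libraries of day 1 correlated most closely with the WT libraries of day 14, at a median r of 0.974 (0.962 to 0.981), across the labels of both genotype and day. KO day 14 and WT day 1 correlated at 0.936. Genes are not independent replicates, and these values describe the libraries only. An exchange of labels between days or genotypes could give this pattern and would change what each KO change stands for. Whether labels were exchanged was not tested, and all groups are called by their labels. Among the WT libraries, replicate 1 of day 14 stood apart, with a chi-square per gene of 34.7 and 49.9 against the other two and 8.93 between those. The median r within WT day 14 was 0.975. Replicate 1 of that group correlated at 0.970 and 0.975 with its own replicates and at 0.981, 0.979 and 0.978 with the KO libraries of day 1. Without it 10017 genes were called in KO and 10501 for the difference from WT, in place of 8761 and 9595.

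The targeted gene was measured in every library. Nr4a3 stood at 1.89, 2.002 and 2.34 CPM on day 1 against 34.3, 60.1 and 54.5 CPM on day 14 in KO. In WT it stood at 4.61, 4.28 and 3.85 CPM on day 1 against 238, 256 and 217 CPM on day 14. The KO libraries were below the WT libraries of the same day without overlap, but reads from the gene were still counted, and those of day 14 were above all 3 WT libraries of day 1. The labels do not tell whether these reads lie in the deleted part, and the counts therefore do not check the deletion. Between the days Nr4a3 rose in KO by 4.57 ± 0.21 on the log2 scale (SE, adjusted p = 1.46e-10, edgeR's quasi-likelihood test with Benjamini-Hochberg adjustment, as for all adjusted p-values here). It rose in WT by 5.80, and the KO change was the smaller one (difference -1.23, adjusted p = 0.00182). The 2 relatives rose in KO and fell in WT. Nr4a1 stood at 20.3, 21.5 and 18.1 CPM on day 1 against 49.4, 42.4 and 77.2 CPM on day 14, a rise of 1.501 ± 0.21 (adjusted p = 2.86e-05). Nr4a2 stood at 13.2, 14.2 and 11.99 CPM on day 1 against 59.9, 49.8 and 72.7 CPM on day 14, a rise of 2.22 ± 0.15 (adjusted p = 1.38e-08). For both genes every KO library of day 14 was above every one of day 1, and the WT values were -0.73 and -1.97.

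The labelled cell type was checked against markers of smooth muscle. Acta2, smooth muscle actin, stood at 660.5, 638 and 704 CPM on day 1 against 1594, 1832 and 1456 CPM on day 14, and Des, desmin, at 613, 584 and 695 CPM on day 1 against 460.1, 501 and 479.9 CPM on day 14. Other defining markers were close to absent. Tagln (SM22) had 2, 9 and 0 counts per library at day 1 and 1, 8 and 2 at day 14, too few to be tested. Myocd, the coactivator that drives the contractile genes, had 5, 13 and 8 counts and then 0, 2 and 0. Myh11, the smooth muscle myosin heavy chain, stood at 0.333, 0.556 and 0.536 CPM on day 1 against 0.122, 0.282 and 0.108 CPM on day 14, and Cnn1, calponin, at 0.555, 1.11 and 0.536 CPM on day 1 against 2.43, 1.48 and 1.89 CPM on day 14. Of 6 smooth muscle markers tested 2 rose and 1 fell, and their summed level was 1296 to 1483 CPM on day 1 and 2001 to 2400 CPM on day 14, most of it Acta2 and Des, which myofibroblasts can also express. Without 1 library the count that rose was 1 to 2 and the count that fell 0 to 3: 1 rose without KO day 1 replicate 1 or 3 or KO day 14 replicate 1, none fell without KO day 1 replicate 2 or KO day 14 replicate 1 or 3, 2 fell without KO day 14 replicate 2 or WT day 14 replicate 1 or 2, and 3 without WT day 14 replicate 3.

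Most genes tested changed between the days, in both directions alike. Of 15973 genes tested, 8761 (54.8%) were called at an adjusted p below 0.05, 4303 higher at day 14 (26.9%) and 4458 lower (27.9%). At least 2-fold, 1622 were higher (10.2%) and 1945 lower (12.2%), and at least 4-fold, 656 and 962. The median log2 fold change of all genes tested was -0.01 and the median of its absolute value 0.48. The libraries of the groups did not overlap for 32.4% of genes upward and for 32.7% downward. These shares are the background against which each count below is to be read.

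**Figure D1:**
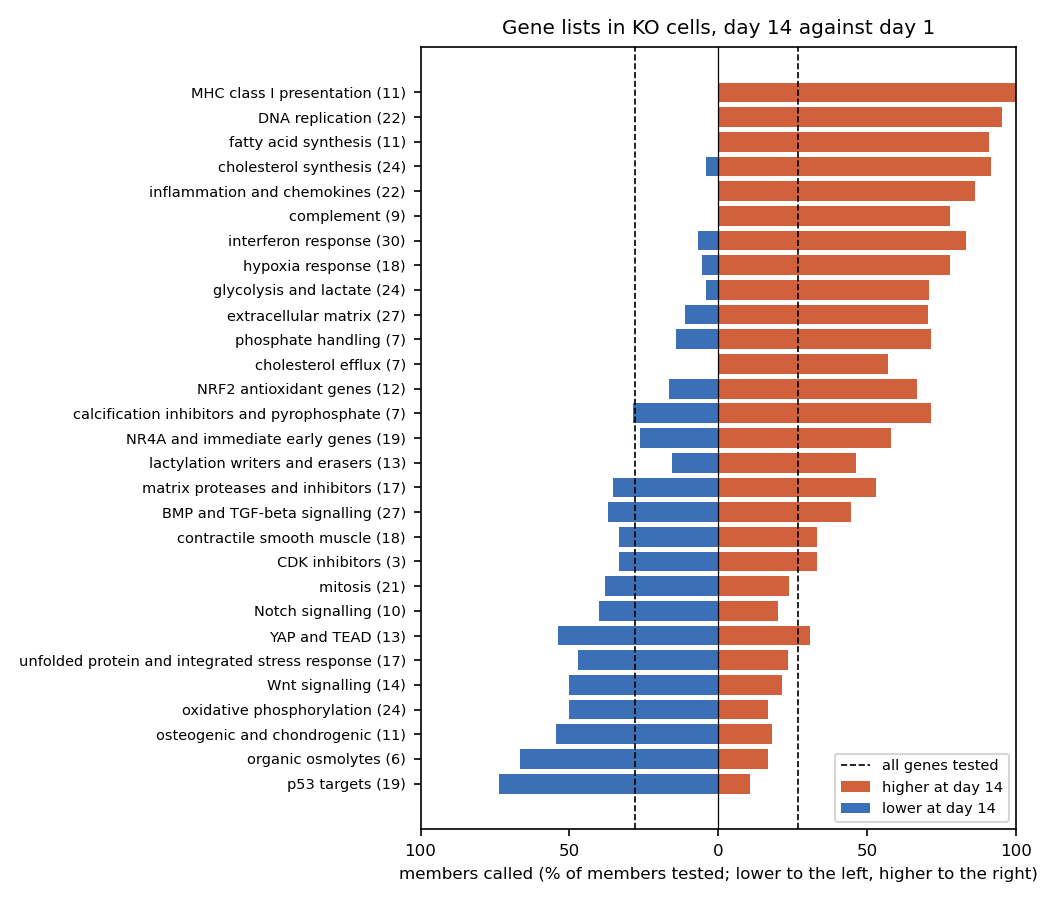
Share of the tested members of each gene list (number in brackets) called higher at day 14 (right) or lower (left) in KO cells, in percent. The dashed lines mark the shares over all 15973 genes, 26.9% higher and 27.9% lower. All 11 members of MHC class I presentation were higher, and 14 of 19 p53 targets were lower.

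Predicted and clone names aside, the largest rises among genes that averaged log2 CPM 3 or more were acute phase and chemokine genes and Enpp1. Cfb and Steap4, below that level, had larger fitted rises than some of them. Saa3, an acute phase serum amyloid, stood at 0.111, 0.222 and 0.585 CPM on day 1 against 571, 327 and 366 CPM on day 14. Lcn2, lipocalin 2, which binds bacterial siderophores, stood at 0, 0.0556 and 0.146 CPM on day 1 against 125, 51.6 and 56.5 CPM on day 14, with 4 counts over the 3 libraries of day 1. Hp, haptoglobin, which binds free haemoglobin, stood at 0.111, 0.167 and 0.195 CPM on day 1 against 72.9, 35.4 and 45.8 CPM on day 14. The groups were far apart for all 3 genes, with each library of day 1 below 1 CPM. The fitted rises were 10.34 ± 0.32, 9.98 ± 0.55 and 8.28 ± 0.53 on the log2 scale (adjusted p = 3.62e-12, 1.26e-09 and 5.73e-09). Leaving out KO day 1 replicate 3 raised the first 2 to 11.25 and 11.16.

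Chemokines that draw neutrophils, eosinophils and monocytes rose from low or moderate levels. Cxcl5 stood at 19.3, 17.1 and 19.9 CPM on day 1 against 2019.5, 1606 and 1756 CPM on day 14 and Cxcl1 at 22.3, 20.0 and 21.2 CPM on day 1 against 2111, 1313 and 1471 CPM on day 14. Both are ligands of the neutrophil receptor CXCR2, and they rose by 6.58 ± 0.13 (adjusted p = 1.03e-13) and 6.27 ± 0.19 (adjusted p = 2.97e-12). Ccl11, eotaxin, stood at 0.333, 0.667 and 0.926 CPM on day 1 against 62.6, 50.7 and 56.1 CPM on day 14, a rise of 6.42 ± 0.25 (adjusted p = 4.65e-11). Il6, interleukin 6, stood at 2.998, 1.95 and 6.58 CPM on day 1 against 297, 141 and 192 CPM on day 14, a rise of 5.74 ± 0.34 (adjusted p = 2.63e-09), or 6.41 without KO day 1 replicate 3. Enpp1, the ectoenzyme that makes pyrophosphate, completed the 8 largest rises at that level and is described with the mineral genes.

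**Figure D2:**
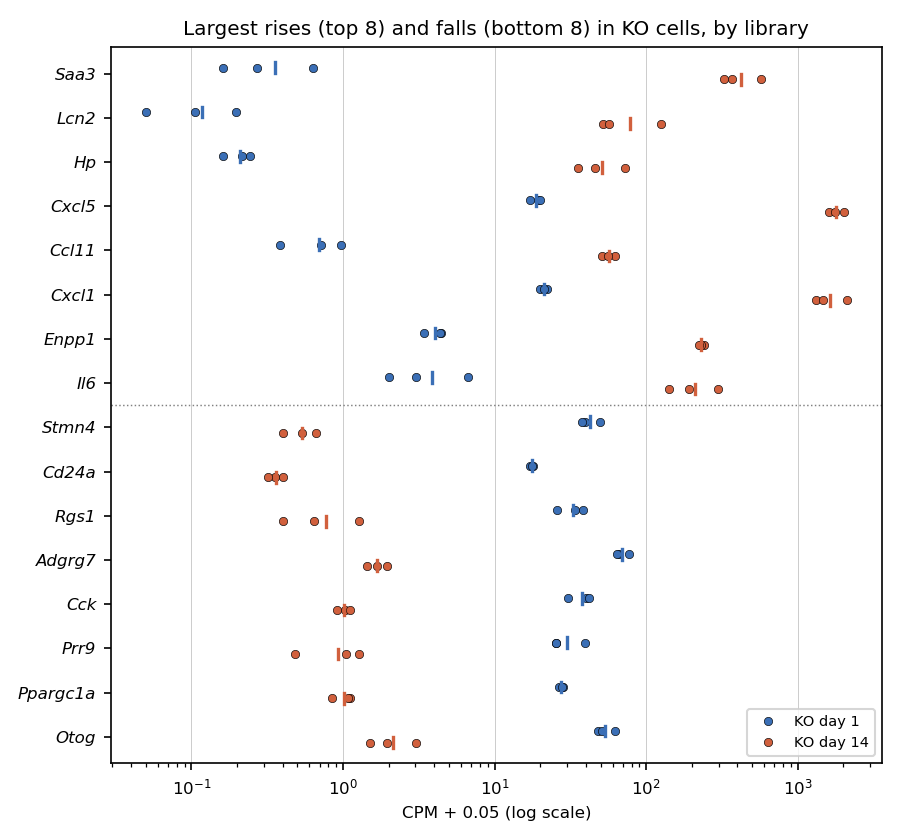
CPM + 0.05 of each KO library on a log axis, at day 1 (blue) and day 14 (red), for the 8 largest rises (top) and the 8 largest falls (bottom) among genes that averaged log2 CPM 3 or more. Predicted and clone names were left out. Points are libraries and vertical bars are means of 3. Saa3 went from below 1 to between 327 and 571 CPM, and Stmn4 from between 37.8 and 49.7 to below 1 CPM.

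The largest falls at that level, again with predicted and clone names aside, were of genes with varied known roles. Stmn4, a stathmin that binds tubulin, stood at 39.6, 37.8 and 49.7 CPM on day 1 against 0.608, 0.353 and 0.485 CPM on day 14. Cd24a, a small glycosylated surface protein, stood at 17.8, 17.1 and 17.6 CPM on day 1 against 0.304, 0.353 and 0.270 CPM on day 14. Rgs1, which shortens signalling of G proteins, stood at 34.0, 25.9 and 38.0 CPM on day 1 against 1.22, 0.353 and 0.593 CPM on day 14. The KO libraries of the 2 days did not overlap for any of these genes, and they fell by 6.42 ± 0.24, fell by 5.81 ± 0.19 and fell by 5.47 ± 0.27 on the log2 scale (adjusted p = 2.38e-11, 7.51e-12 and 3.56e-10). Without KO day 14 replicate 1, Rgs1 fell by 6.06. Adgrg7, an adhesion G protein-coupled receptor, stood at 66.1, 63.8 and 77.3 CPM on day 1 against 1.40, 1.62 and 1.89 CPM on day 14 and fell by 5.39 ± 0.16 (adjusted p = 2.70e-12). Cck, cholecystokinin, fell by 5.28 ± 0.21, from 40.1, 41.9 and 30.5 CPM to 0.973, 1.06 and 0.863 CPM. Prr9 fell by 5.12 ± 0.35, from 25.5, 25.4 and 39.5 CPM to 1.22, 0.988 and 0.431 CPM. Ppargc1a encodes PGC-1alpha, the coactivator of mitochondrial biogenesis. It stood at 26.4, 28.3 and 28.0 CPM on day 1 against 0.791, 1.06 and 1.02 CPM on day 14 and fell by 4.84 ± 0.14 (adjusted p = 2.70e-12). Otog, otogelin, fell by 4.70 ± 0.21, from 48.2, 51.1 and 61.9 CPM to 1.89, 2.96 and 1.46 CPM.

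Of 22 members tested of the list of inflammation and chemokines, 19 rose and none fell, with a median log2 fold change of 3.87 against -0.01 over all genes. The median was 4.59 without KO day 1 replicate 3. The list holds secreted signals and their brakes, and both kinds rose. Among the signals, Ccl2, which recruits monocytes, stood at 51.6, 41.9 and 44.9 CPM on day 1 against 1766, 1356 and 1330.2 CPM on day 14, a rise of 5.01 ± 0.15 (adjusted p = 2.70e-12). Ccl7 stood at 104, 84.3 and 116 CPM on day 1 against 1145, 822 and 846 CPM on day 14 and Ccl5 at 5.11, 7.45 and 5.85 CPM on day 1 against 54.0, 35.2 and 50.4 CPM on day 14, rises of 3.21 ± 0.13 and 2.92 ± 0.18 (adjusted p = 7.58e-11 and 3.69e-09). Among the brakes, Nfkbia, which holds NF-kB in the cytoplasm and is one of its targets, stood at 15.7, 15.1 and 15.5 CPM on day 1 against 181, 125 and 119 CPM on day 14, a rise of 3.20 ± 0.20 (adjusted p = 6.09e-09). Il1rn, the natural antagonist of the interleukin 1 receptor, stood at 29.4, 26.9 and 32.2 CPM on day 1 against 361, 325 and 366 CPM on day 14, a rise of 3.57 ± 0.095 (adjusted p = 1.36e-12). In each of these genes all KO libraries of day 14 were above all of day 1. Ptgs2, the inducible cyclooxygenase, stood at 435, 434 and 572 CPM on day 1 against 2148, 1217 and 1493 CPM on day 14, a rise of 1.75 ± 0.16 (adjusted p = 3.28e-07). Nos2, the inducible nitric oxide synthase, had 8 counts over day 1 and stood at 19.2, 15.7 and 16.5 CPM at day 14. Cxcl10, a chemokine known as an interferon target, stood at 10.5, 13.8 and 11.1 CPM on day 1 against 12.8, 13.0 and 15.3 CPM on day 14 with overlapping groups, and its change of 0.21 ± 0.20 was not called (adjusted p = 0.374). Neither Cxcl12 (-0.58 ± 0.65, adjusted p = 0.469) nor Ptges (0.57 ± 0.27, adjusted p = 0.0838) was called. Tnf had 0 counts in each library of day 1 and 11, 3 and 11 at day 14, and Il1b at most 5 counts in any KO library, so neither could be tested.

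Complement genes rose in 7 of 9 tested, with a median of 2.02, and none fell. C3, the central component of the cascade, stood at 11.5, 9.12 and 10.6 CPM on day 1 against 459, 315 and 345 CPM on day 14, a rise of 5.16 ± 0.23 (adjusted p = 1.64e-10). The rise of C3 separated the days without overlap. C1ra, a protease of the first complex, stood at 43.1, 38.6 and 36.9 CPM on day 1 against 217, 179.9 and 192 CPM on day 14, a rise of 2.31 ± 0.14 (adjusted p = 3.49e-09). Cfb, factor B, had 1 count over day 1 and 206 over day 14, a ratio of 237 with an exact 95% interval of 42.0 to 9401 that covers counting error only. Its fitted rise of 7.46 ± 0.73 was 9.38 without KO day 1 replicate 3, the library with that count. Serping1, the inhibitor of C1, stood at 0.444, 0 and 0.244 CPM on day 1 against 2.68, 1.13 and 2.32 CPM on day 14, a rise of 3.13 ± 0.56 (adjusted p = 2.28e-04), or 3.94 without KO day 1 replicate 1. Cd59a (-0.21 ± 0.35, adjusted p = 0.636) and C2 (0.54 ± 0.42, adjusted p = 0.298) were not called.

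The promoters of 2 of these genes are shown because the inflammation list moved together and NF-kB is the factor best known for its members. They were picked among called genes whose promoter holds an NF-kB match, so a match in each was fixed in advance. They come from the RefSeq table of assembly GRCm38.p6, 250 bases before to 50 after the start site, and capitals mark matches to the NF-kB consensus on either strand, which overlap in Cxcl1. The Cxcl1 window is chr5:90890995-90891294 on the plus strand and the Il6 window chr5:30012864-30013163 on the plus strand.
Cxcl1: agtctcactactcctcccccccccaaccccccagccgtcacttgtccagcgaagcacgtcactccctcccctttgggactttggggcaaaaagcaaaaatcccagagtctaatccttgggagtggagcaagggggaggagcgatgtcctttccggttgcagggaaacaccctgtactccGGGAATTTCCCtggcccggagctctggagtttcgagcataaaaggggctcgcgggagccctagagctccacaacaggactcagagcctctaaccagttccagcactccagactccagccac
Il6: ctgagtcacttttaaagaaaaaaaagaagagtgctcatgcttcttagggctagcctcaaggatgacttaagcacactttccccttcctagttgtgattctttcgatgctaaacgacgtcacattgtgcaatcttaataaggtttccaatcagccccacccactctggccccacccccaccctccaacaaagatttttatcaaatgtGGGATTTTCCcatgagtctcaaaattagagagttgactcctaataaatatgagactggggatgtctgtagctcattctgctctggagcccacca
The consensus, chosen after the data were seen, was in 6 of 17 windows of the list (35.3%, from 14 of its 22 tested genes that matched the table by symbol), beside 4.51% of all 32851 windows. Among the windows of genes tested it was in 5.10%. The genes of the list with a match were Cxcl1, Cxcl10, Il6, Nfkbia, Steap4 and Tnfaip3, among them Cxcl10, which was not called. A match is a description of the letters in the window and not a binding site.

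Genes of the interferon response rose in 25 of 30 and fell in 2, with a median of 1.15. Gbp2, a guanylate-binding protein that attacks the vacuoles of pathogens, stood at 6.55, 5.84 and 8.09 CPM on day 1 against 173, 229 and 229.9 CPM on day 14, a rise of 4.94 ± 0.15 (adjusted p = 3.62e-12). Mx1 encodes a dynamin-like protein that blocks influenza viruses and stood at 2.28, 1.06 and 1.36 CPM on day 1 against 31.1, 35.6 and 45.4 CPM on day 14. Zbp1, a sensor of Z-form nucleic acids, stood at 3.50, 4.34 and 3.51 CPM on day 1 against 68.8, 95.5 and 106 CPM on day 14. They rose by 4.58 ± 0.27 and 4.57 ± 0.21 (adjusted p = 2.64e-09 and 2.30e-10), each without overlap of the days. Irf7, a factor that switches on interferon genes, rose by 2.11 ± 0.19 (adjusted p = 1.94e-07). The 2 that fell were Oasl1 and Rsad2. Oasl1, known to repress translation of Irf7, stood at 7.33, 7.62 and 5.75 CPM on day 1 against 1.76, 1.84 and 2.21 CPM on day 14 and fell by 1.82 ± 0.30 (adjusted p = 1.12e-04). Rsad2, viperin, stood at 68.2, 59.8 and 74.3 CPM on day 1 against 40.0, 47.5 and 57.1 CPM on day 14 and fell by 0.48 ± 0.14 (adjusted p = 0.00717). Ifit2 (0.19 ± 0.097, adjusted p = 0.108), Oas3 (0.54 ± 0.24, 0.0701) and Cmpk2 (0.45 ± 0.25, 0.144) were not called. The Oas1 genes are near-identical copies, and how their reads were divided is not given in the sources used here.

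In WT all 30 members rose, with a median of 5.13, where 25.8% of all genes rose and 26.1% fell, and the difference between the genotypes was called for 26 members, 25 of them with the smaller change in KO. Over all genes the difference was called for 60.1%, 29.5% higher and 30.5% lower in KO. Gbp2 alone rose more in KO (difference 1.63, adjusted p = 1.46e-05). For Oas2 the difference was -8.77 (adjusted p = 2.95e-10), with 3 counts over the WT libraries of day 1. The differences of Stat2 and Mx1, 0.04 and -0.21, were not called (adjusted p = 0.882 and 0.710). A smaller change in KO is not the same as a lower level. At day 1 the mean CPM of Rsad2 was 67.5 in KO and 3.26 in WT, and that of Zbp1 3.78 and 0.514. At day 14 Zbp1 stood at 90.0 in KO and 39.1 in WT, whereas Rsad2 stood at 48.2 and 110.

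All 11 members tested of MHC class I presentation rose, with a median of 2.26. Psmb9 and Psmb8 are subunits of the immunoproteasome, which cuts peptides for display. They stood at 2.72, 1.06 and 2.39 CPM on day 1 against 18.9, 20.9 and 20.9 CPM on day 14 and at 2.50, 3.06 and 1.85 CPM on day 1 against 16.9, 19.5 and 19.7 CPM on day 14, rises of 3.29 ± 0.29 and 2.92 ± 0.26 (adjusted p = 2.25e-07 and 2.47e-07). H2-K1, a class I heavy chain, stood at 34.5, 38.0 and 38.1 CPM on day 1 against 195, 199 and 223 CPM on day 14, a rise of 2.48 ± 0.14 (adjusted p = 1.60e-09). H2-K1 and H2-D1 are alike in sequence and may share reads. B2m, the light chain, stood at 746, 622 and 782 CPM on day 1 against 2735, 2440.0 and 2643 CPM on day 14, a rise of 1.86 ± 0.11 (adjusted p = 3.05e-09). Tapbp, which loads the peptides, stood at 46.0, 53.4 and 43.5 CPM on day 1 against 222, 267 and 274 CPM on day 14, a rise of 2.42 ± 0.11 (adjusted p = 1.39e-10). No KO library of day 14 overlapped those of day 1 in these genes. WT rose as well for most, with a list median of 1.88, and B2m differed between the genotypes by -0.01 (adjusted p = 0.944).

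The promoters of 3 genes of the interferon list are shown for the stimulated response element, GAAA and GAAA with any 2 bases between, that the factor ISGF3 is known to bind. Capitals mark its matches on either strand in windows of assembly GRCm38.p6 from RefSeq. The genes shown were picked among called members that hold a match, so a match in each was fixed in advance. The windows are chr3:142620413-142620712 for Gbp2, chr3:142559794-142560093 for Gbp3 and chr19:34583279-34583578 for Ifit3, all on the plus strand. In Gbp3 the 2 matches overlap.
Gbp2: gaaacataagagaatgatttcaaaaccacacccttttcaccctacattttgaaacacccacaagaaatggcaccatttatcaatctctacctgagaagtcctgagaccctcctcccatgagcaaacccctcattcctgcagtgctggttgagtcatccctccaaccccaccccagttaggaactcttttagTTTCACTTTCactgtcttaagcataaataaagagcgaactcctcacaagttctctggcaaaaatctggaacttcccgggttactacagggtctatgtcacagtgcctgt
Gbp3: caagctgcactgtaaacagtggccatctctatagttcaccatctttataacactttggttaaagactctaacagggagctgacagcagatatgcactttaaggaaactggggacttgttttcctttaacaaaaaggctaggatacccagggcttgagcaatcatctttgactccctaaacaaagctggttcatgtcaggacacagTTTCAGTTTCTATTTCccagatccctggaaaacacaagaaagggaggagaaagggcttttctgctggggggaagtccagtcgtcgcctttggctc
Ifit3: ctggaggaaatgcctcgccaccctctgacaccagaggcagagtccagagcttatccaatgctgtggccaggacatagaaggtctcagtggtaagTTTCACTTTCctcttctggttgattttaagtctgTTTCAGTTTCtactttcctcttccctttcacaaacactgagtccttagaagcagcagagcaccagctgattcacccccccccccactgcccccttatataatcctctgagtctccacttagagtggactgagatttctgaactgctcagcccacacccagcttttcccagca
The element was in 13 of 25 windows of the list (52%, from 22 of its 30 genes that matched), beside 3.44% of all windows. Among the windows of genes tested it was in 3.08%. Gbp3 stood at 14.5, 10.7 and 10.7 CPM on day 1 against 129.9, 172 and 190.3 CPM on day 14 and Ifit3 at 56.8, 52.4 and 53.7 CPM on day 1 against 184, 219 and 272 CPM on day 14, rises of 3.78 ± 0.20 and 2.05 ± 0.13. Rsad2, which fell, also holds a match.

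Nearly the whole pathway from acetyl-CoA to cholesterol rose. Of 24 members tested, 22 rose and 1 fell, with a median of 1.14. Fdps, which makes farnesyl diphosphate, stood at 1.94, 1.28 and 1.22 CPM on day 1 against 11.9, 9.39 and 8.90 CPM on day 14, a rise of 2.77 ± 0.37 (adjusted p = 1.58e-05). Hmgcs1, which makes HMG-CoA near the start of the pathway, stood at 53.3, 41.2 and 51.1 CPM on day 1 against 175, 134 and 139 CPM on day 14, a rise of 1.62 ± 0.20 (adjusted p = 5.58e-06). For both genes every library of day 14 exceeded every one of day 1. Srebf2, the factor that switches the pathway on, stood at 201, 204 and 185 CPM on day 1 against 337, 356 and 345 CPM on day 14, a rise of 0.82 ± 0.15 (adjusted p = 3.72e-04). Ebp was not called (0.12 ± 0.091, adjusted p = 0.269).

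Fatty acid synthesis rose in 10 of 11 members, with a median of 1.18 and none lower. Scd2 and Scd1, the desaturases that make oleate, stood at 549, 525 and 483 CPM on day 1 against 1725, 1601 and 1608 CPM on day 14 and at 344, 320.2 and 339 CPM on day 1 against 807, 723 and 753 CPM on day 14, rises of 1.66 ± 0.16 and 1.19 ± 0.17 (adjusted p = 4.15e-07 and 2.56e-05). Fasn, the synthase itself, stood at 100.1, 115 and 79.0 CPM on day 1 against 278, 315 and 302 CPM on day 14, a rise of 1.61 ± 0.13 (adjusted p = 7.38e-08). Srebf1 stood at 27.9, 31.1 and 22.8 CPM on day 1 against 67.4, 77.2 and 76.8 CPM on day 14, a rise of 1.44 ± 0.13 (adjusted p = 1.92e-07). The days did not overlap for these genes. Fads1 was the member not called (0.37 ± 0.17, adjusted p = 0.0774).

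Genes of cholesterol efflux rose in 4 of 7, with a median of 0.87. Abca1, the exporter that loads lipid onto apolipoproteins, stood at 2.33, 2.61 and 2.34 CPM on day 1 against 8.64, 11.6 and 14.8 CPM on day 14, a rise of 2.27 ± 0.28 (adjusted p = 6.25e-06). Apoe stood at 7.44, 9.23 and 5.51 CPM on day 1 against 26.8, 23.4 and 29.2 CPM on day 14, a rise of 1.84 ± 0.24 (adjusted p = 9.63e-06). Mylip, an E3 ubiquitin ligase and known target of the oxysterol receptors, rose by 0.87 ± 0.11 (adjusted p = 1.12e-05). The oxysterol receptors themselves, Nr1h3 (0.92 ± 0.44, adjusted p = 0.0890) and Nr1h2 (-0.07 ± 0.11, 0.598), were not called, nor was Abcg1 (0.12 ± 0.30, 0.755).

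In WT the same pathways went the other way. All 24 cholesterol genes fell there (median -1.66), as did 10 of 11 fatty acid genes (median -1.52). The difference was called for all 24 and all 11, each higher in KO, as set against 29.5% of all genes. For Fdps the difference was 5.95 and for Scd2 4.04 (adjusted p = 7.08e-08 and 8.09e-10). The sterol regulatory element, TCAC and CCAC with any base between, was found in 1 of 19 windows of the cholesterol list (5.26%, from 16 genes), that of Hmgcs1, beside 1.24% of all windows. Among the windows of genes tested the element was in 1.17%.

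Glycolysis rose in 17 of 24 members and fell in 1, with a median of 0.75. The list starts with the glucose carrier Slc2a1, which stood at 64.7, 73.1 and 64.6 CPM on day 1 against 264, 222 and 234 CPM on day 14, a rise of 1.83 ± 0.091 (adjusted p = 4.19e-10). Pfkl, the liver form of the enzyme that commits sugar to glycolysis, stood at 62.6, 59.0 and 57.3 CPM on day 1 against 321, 308 and 311 CPM on day 14, a rise of 2.39 ± 0.16 (adjusted p = 9.45e-09). Aldoa, the aldolase of muscle, stood at 538, 515 and 508 CPM on day 1 against 1083, 973 and 965 CPM on day 14, a rise of 0.95 ± 0.12 (adjusted p = 7.15e-06). Ldha, which turns pyruvate into lactate, stood at 451, 502 and 338 CPM on day 1 against 1518, 1394 and 1286 CPM on day 14, a rise of 1.70 ± 0.13 (adjusted p = 3.47e-08). Slc16a3, the carrier that exports lactate, stood at 25.9, 31.4 and 20.4 CPM on day 1 against 91.0, 79.6 and 71.7 CPM on day 14, a rise of 1.64 ± 0.13 (adjusted p = 5.27e-08). Pdk1, which keeps pyruvate out of the mitochondria, stood at 31.0, 29.6 and 28.9 CPM on day 1 against 179, 137 and 149 CPM on day 14, a rise of 2.38 ± 0.19 (adjusted p = 7.65e-08). All 6 genes separated the days without overlap. Hk2 (-0.07 ± 0.10, adjusted p = 0.604) and Pfkp (0.12 ± 0.080, 0.204) were not called. Gapdh stood at 13.2, 13.7 and 18.3 CPM on day 1 against 29.7, 27.6 and 31.1 CPM on day 14. It has many pseudogenes, and reads that match them may not have been counted for it. The member that fell was Slc2a3, with 17 counts over day 1 and 1 over day 14, 14.8 times lower (exact 95% interval 2.32 to 618). Its fitted change of -3.54 ± 1.07 was -5.65 without KO day 14 replicate 1, the library with that count. It lost its call without KO day 14 replicate 3 (adjusted p = 0.0541), and 3 members fell without WT day 14 replicate 1.

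Genes induced by hypoxia rose in 14 of 18 and fell in 1, with a median of 0.69. Bnip3, a mitophagy receptor, stood at 22.3, 20.7 and 24.2 CPM on day 1 against 84.3, 52.7 and 61.6 CPM on day 14, a rise of 1.56 ± 0.16 (adjusted p = 9.25e-07). Egln3, the prolyl hydroxylase that marks HIF for decay, stood at 25.5, 26.4 and 19.3 CPM on day 1 against 73.9, 55.2 and 62.1 CPM on day 14, a rise of 1.43 ± 0.12 (adjusted p = 1.74e-07). Hif1a itself stood at 178, 169 and 183 CPM on day 1 against 324, 289 and 305 CPM on day 14, a rise of 0.79 ± 0.11 (adjusted p = 2.97e-05). Epas1 and Ankrd37 rose by 3.19 ± 0.74 and 2.51 ± 0.49 from less than 1 CPM, the second by 3.25 without KO day 1 replicate 2. Ndrg1 went against the list, at 352, 347 and 378 CPM on day 1 against 204, 136 and 146 CPM on day 14, and fell by 1.15 ± 0.13 (adjusted p = 2.85e-06). Car9, a tight target of HIF, was not called (-0.15 ± 0.18, adjusted p = 0.516). The WT medians of the glycolysis and hypoxia lists were -0.87 and -0.81, and the difference was called higher in KO for 19 of 24 and 15 of 18 members. It was called lower for 2 and 1, beside 29.5% higher and 30.5% lower over all genes.

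The promoters of Slc2a1 and Ldha are shown for the core ACGTG to which HIF is known to bind. Capitals mark its matches on either strand, in GRCm38.p6 windows from RefSeq at chr4:119108495-119108794 for Slc2a1 and chr7:46845554-46845853 for Ldha, both on the plus strand. In Ldha 2 pairs of matches overlap on opposite strands. Both genes were picked among called members that hold a match, so a match in each was fixed in advance.
Slc2a1: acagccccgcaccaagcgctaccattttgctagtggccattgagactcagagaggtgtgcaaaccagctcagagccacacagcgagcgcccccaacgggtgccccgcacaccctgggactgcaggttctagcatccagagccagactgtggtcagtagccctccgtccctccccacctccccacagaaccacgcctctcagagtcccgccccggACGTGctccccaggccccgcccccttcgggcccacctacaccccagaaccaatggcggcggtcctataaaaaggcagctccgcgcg
Ldha: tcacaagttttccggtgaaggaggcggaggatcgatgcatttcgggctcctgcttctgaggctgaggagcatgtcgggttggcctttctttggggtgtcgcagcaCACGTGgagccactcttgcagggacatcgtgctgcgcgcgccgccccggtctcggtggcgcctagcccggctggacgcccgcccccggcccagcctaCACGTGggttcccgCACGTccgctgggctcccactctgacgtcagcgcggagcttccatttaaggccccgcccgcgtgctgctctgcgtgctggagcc
The core was in 30 of 54 windows of the glycolysis and hypoxia lists (55.6%, from 36 of 42 genes), beside 19.6% of all windows and 24.5% of the windows of genes tested.

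Oxidative phosphorylation fell in 12 of 24 members and rose in 4, with a median of -0.27. The changes of the subunits were small. Cox6c and Cox5b, subunits of cytochrome oxidase, stood at 216, 191 and 238 CPM on day 1 against 135, 133 and 128 CPM on day 14 and at 149.6, 147 and 166 CPM on day 1 against 98.3, 97.5 and 95.8 CPM on day 14, and fell by 0.70 ± 0.11 and 0.67 ± 0.12 (adjusted p = 7.69e-05 and 1.87e-04). Each KO library of day 14 was below those of day 1. Atp5a1, a subunit of ATP synthase, stood at 513, 515 and 461 CPM on day 1 against 708, 707 and 693 CPM on day 14 and rose by 0.50 ± 0.072 (adjusted p = 2.91e-05). Tfam, the packaging factor of mitochondrial DNA, did not pass the test (0.00 ± 0.11, adjusted p = 0.982).

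The enzymes proposed to write and erase lactyl marks on histones rose in 6 of 13 and fell in 2, with a median of 0.09. Ep300 and Kat2b, acetyltransferases, stood at 179, 182 and 157 CPM on day 1 against 213, 236 and 236 CPM on day 14 and at 44.1, 44.6 and 46.1 CPM on day 1 against 71.7, 75.9 and 79.0 CPM on day 14, rises of 0.41 ± 0.080 and 0.75 ± 0.078 (adjusted p = 5.21e-04 and 1.08e-06). The erasers Hdac1 and Hdac3 rose by 1.21 ± 0.12 and 0.78 ± 0.080 (adjusted p = 8.16e-07 and 9.97e-07). Sirt1 and Kat8 fell by 0.42 ± 0.12 and 0.72 ± 0.12 (adjusted p = 0.00609 and 1.54e-04), and with library size alone 4 members fell.

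Genes of DNA replication rose in 21 of 22 members with none lower, a median of 1.27, while genes of mitosis were split. Ccne2, a cyclin that opens S phase, stood at 7.88, 8.84 and 7.65 CPM on day 1 against 44.2, 41.3 and 36.5 CPM on day 14, a rise of 2.32 ± 0.24 (adjusted p = 1.08e-06). Cdc6, which loads the replicative helicase, stood at 9.66, 10.5 and 9.46 CPM on day 1 against 40.7, 48.5 and 41.1 CPM on day 14, a rise of 2.14 ± 0.27 (adjusted p = 9.93e-06). Tyms, thymidylate synthase, stood at 13.8, 16.5 and 14.3 CPM on day 1 against 64.6, 63.5 and 55.5 CPM on day 14, a rise of 2.04 ± 0.18 (adjusted p = 2.48e-07). For all 3 the lowest library of day 14 was above the highest of day 1. Mcm6 and Pcna, helicase subunit and sliding clamp, stood at 95.8, 89.4 and 83.1 CPM on day 1 against 319, 334 and 305 CPM on day 14 and at 98.3, 104 and 92.4 CPM on day 1 against 286, 284 and 251 CPM on day 14, rises of 1.83 ± 0.083 and 1.48 ± 0.14 (adjusted p = 1.64e-10 and 4.96e-07). Mcm7 was the member without a call (0.35 ± 0.17, adjusted p = 0.0993). In WT the median was 0.06, and the difference was called for 16 of 22 members, each higher in KO.

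Mitotic genes fell in 8 of 21 and rose in 5, with a median of -0.08. Foxm1, their activator, stood at 42.5, 44.2 and 35.6 CPM on day 1 against 56.3, 70.5 and 64.8 CPM on day 14, a rise of 0.65 ± 0.13 (adjusted p = 4.45e-04), and Mki67, the proliferation antigen, at 269.8, 306 and 255 CPM on day 1 against 391, 476 and 403 CPM on day 14, a rise of 0.61 ± 0.19 (adjusted p = 0.0133, or 0.0639 without KO day 14 replicate 2). Without that library 3 members rose. Ube2c and Cdc20, parts of the machinery of anaphase, stood at 95.5, 87.9 and 93.8 CPM on day 1 against 49.5, 59.0 and 55.1 CPM on day 14 and at 139, 156 and 107 CPM on day 1 against 75.0, 87.5 and 77.9 CPM on day 14. They fell by 0.76 ± 0.083 and 0.74 ± 0.12 (adjusted p = 1.75e-06 and 1.32e-04). Cdk1, the kinase that starts mitosis, overlapped between the days (-0.08 ± 0.13, adjusted p = 0.624). The cell cycle homology region TTTGAA was in 12 of 17 windows of the mitosis list (70.6%) beside 17.9% of all windows. The E2F element, TTTC followed directly by CCGC and chosen after the data were seen, was in 4 of 17 windows of the replication list (23.5%) beside 1.07%. Among the windows of genes tested the E2F element was in 1.89% and TTTGAA in 12.4%.

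Targets of p53, the factor that halts damaged cells, fell in 14 of 19 and rose in 2, with a median of -1.14. Cdkn1a, which encodes the inhibitor p21, stood at 404, 429.5 and 421 CPM on day 1 against 178, 169 and 162 CPM on day 14 and fell by 1.30 ± 0.073 (adjusted p = 1.57e-09). Mdm2, the ligase that degrades p53, stood at 378, 381 and 417 CPM on day 1 against 173, 166 and 167 CPM on day 14 and fell by 1.22 ± 0.070 (adjusted p = 2.17e-09). Eda2r and Btg2 stood at 237, 214 and 282 CPM on day 1 against 57.7, 51.5 and 49.9 CPM on day 14 and at 72.2, 81.6 and 74.8 CPM on day 1 against 17.9, 17.7 and 18.9 CPM on day 14, and fell by 2.20 ± 0.10 and 2.06 ± 0.12 (adjusted p = 2.59e-10 and 1.76e-09). Bbc3, which encodes the death effector PUMA, stood at 14.3, 17.5 and 14.6 CPM on day 1 against 4.32, 5.22 and 4.69 CPM on day 14 and fell by 1.71 ± 0.18 (adjusted p = 1.04e-06). Every library of day 14 was below every library of day 1 in these 5 genes. Fas, the death receptor, went the other way at 8.33, 7.23 and 10.2 CPM on day 1 against 80.9, 72.4 and 65.4 CPM on day 14, a rise of 3.08 ± 0.15 (adjusted p = 3.48e-10), and Sesn1 rose by 0.84 ± 0.16. In WT the median was 0.26, and the difference was called lower in KO for 15 of 19 members and higher for 2. Of the other CDK inhibitors, Cdkn2c rose by 0.78 ± 0.083 and Cdkn1b fell by 0.55 ± 0.12 (adjusted p = 1.45e-06 and 0.00142).

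Genes of the extracellular matrix rose in 19 of 27 and fell in 3, with a median of 0.91. Lox, which cross-links collagen and elastin, stood at 119, 96.3 and 131 CPM on day 1 against 2253, 2328 and 2220.0 CPM on day 14, a rise of 4.29 ± 0.25 (adjusted p = 2.35e-09). Col6a1 and Col6a2, chains of the beaded collagen VI, stood at 90.3, 63.9 and 118 CPM on day 1 against 702, 720.3 and 724 CPM on day 14 and at 25.6, 19.2 and 34.6 CPM on day 1 against 215, 245 and 231 CPM on day 14, rises of 2.98 ± 0.28 and 3.11 ± 0.25 (adjusted p = 4.62e-07 and 8.06e-08). Col3a1, a fibrillar collagen of vessel walls, stood at 612, 586 and 538 CPM on day 1 against 4077, 3365 and 3619.7 CPM on day 14, a rise of 2.67 ± 0.16 (adjusted p = 2.29e-09). The days stood apart without overlap for these chains. Fn1, fibronectin, stood at 3117, 3151 and 3114 CPM on day 1 against 7579, 9205 and 8751 CPM on day 14, a rise of 1.44 ± 0.14 (adjusted p = 6.87e-07). The 2 chains of collagen I moved apart. Col1a2 stood at 540.4, 522 and 511 CPM on day 1 against 712, 790.1 and 774 CPM on day 14, a rise of 0.53 ± 0.17 (adjusted p = 0.0142), and Col1a1 at 68.9, 75.0 and 70.0 CPM on day 1 against 33.0, 46.3 and 39.5 CPM on day 14, where it fell by 0.85 ± 0.19 (adjusted p = 0.00131). Col11a1, a collagen of cartilage, fell by 3.52 ± 0.33 and Fmod, fibromodulin, by 1.76 ± 0.33 (adjusted p = 3.93e-07 and 3.55e-04). Eln, elastin, had 0, 0 and 3 counts at day 1 and 9, 4 and 11 at day 14, too few to test. The WT median was -0.59. The difference was called higher in KO for 19 members, with 6.41 for Lox, and lower for 5. Over all genes it was called higher for 29.5% and lower for 30.5%. Grem1, a BMP antagonist that is not in this list, differed by 6.45.

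Proteases of the matrix and their inhibitors rose in 9 of 17 and fell in 6, with a median of 0.60. Mmp9, a gelatinase, stood at 1.11, 0.667 and 0.536 CPM on day 1 against 28.1, 19.1 and 22.1 CPM on day 14, a rise of 4.91 ± 0.33 (adjusted p = 9.97e-09). Timp1, an inhibitor of these enzymes, stood at 132, 124 and 133 CPM on day 1 against 758, 697 and 701 CPM on day 14, a rise of 2.47 ± 0.089 (adjusted p = 1.68e-11). Timp3, the inhibitor bound to matrix, went the other way, at 189, 209.6 and 204 CPM on day 1 against 60.6, 49.1 and 42.7 CPM on day 14, and fell by 1.98 ± 0.11 (adjusted p = 1.60e-09). Mmp10, stromelysin 2, stood at 518, 485 and 502 CPM on day 1 against 43.4, 34.3 and 43.9 CPM on day 14 and fell by 3.63 ± 0.15 (adjusted p = 6.32e-11). Mmp2 was not called (-0.33 ± 0.24, adjusted p = 0.264). None of the 4 genes called overlapped between the days. Adamts4, an aggrecanase, rose by 2.98 ± 0.21 and Mmp12, macrophage elastase, fell by 2.13 ± 0.24 (adjusted p = 1.81e-08 and 2.46e-06).

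Contractile genes rose in 6 of 18 tested and fell in 6, near the shares over all genes. The median of -0.07 changed sign in 4 of the alternatives, to at most 0.04. Acta2 rose by 1.29 ± 0.11 (adjusted p = 1.93e-07). Kcnmb1, the beta subunit of the calcium-activated potassium channel of smooth muscle, stood at 2.44, 2.89 and 2.88 CPM on day 1 against 27.7, 26.6 and 23.3 CPM on day 14, a rise of 3.24 ± 0.22 (adjusted p = 9.48e-09). Cnn1 rose by 1.40 ± 0.45 (adjusted p = 0.0151), a call lost without KO day 1 replicate 1 (0.0595) or 3 (0.0626) or without KO day 14 replicate 1 (0.0792). Myl9, the regulatory light chain, stood at 39.6, 33.0 and 44.3 CPM on day 1 against 17.2, 17.1 and 12.9 CPM on day 14 and fell by 1.31 ± 0.20 (adjusted p = 5.74e-05). Ppp1r14a, the inhibitor of the myosin phosphatase, stood at 2.28, 2.67 and 3.07 CPM on day 1 against 0.122, 0.141 and 0.162 CPM on day 14 and fell by 4.17 ± 0.55 (adjusted p = 1.40e-05). These 2 genes separated the days without overlap. The change of Myh11 was -1.50 ± 0.62 (adjusted p = 0.0525) on 27 counts at day 1 and 8 at day 14, and it passed the threshold without KO day 14 replicate 2 (0.0493), with library size alone (0.0420) and with limma-voom (0.04997). Des fell by 0.39 ± 0.16 (adjusted p = 0.0492), and its call was lost without any 1 of the KO libraries, with adjusted p-values of 0.0501 to 0.180, without each WT library of day 1 or WT day 14 replicate 2, and with DESeq2-type size factors (0.0585) or limma-voom (0.0582).

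**Figure D3:**
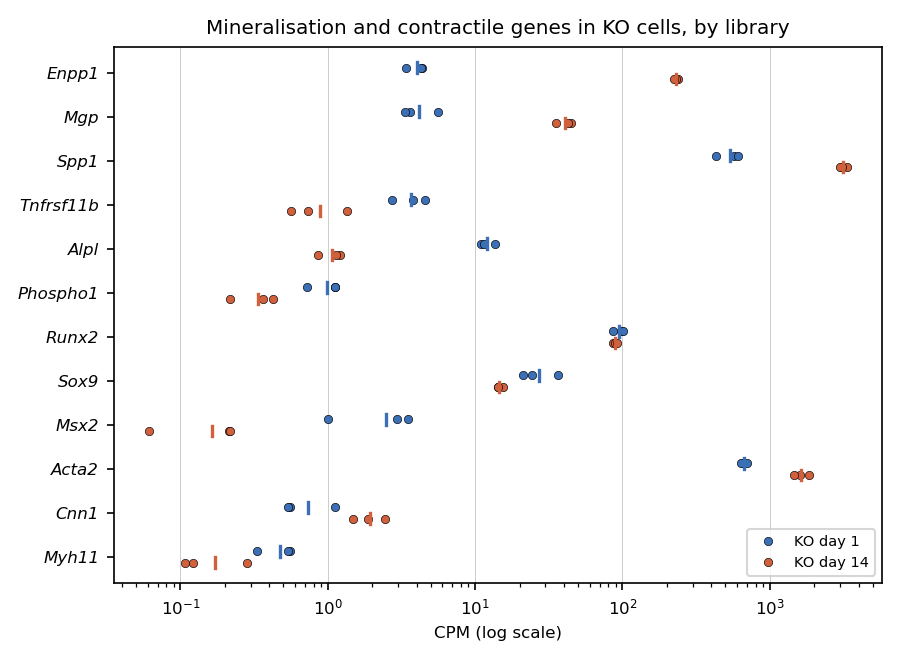
CPM of each KO library on a log axis at day 1 (blue) and day 14 (red) for genes of mineralisation and of the contractile apparatus. Points are libraries and vertical bars are means of 3. Enpp1, Mgp and Spp1 were higher in all 3 libraries of day 14, Alpl, Phospho1 and Msx2 lower, and Runx2 overlapped.

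Genes of bone and cartilage fell in 6 of 11 and rose in 2, with a median of -0.90. Alpl, the phosphatase that degrades pyrophosphate and splits beta-glycerophosphate, stood at 10.9, 11.4 and 13.6 CPM on day 1 against 1.22, 1.13 and 0.863 CPM on day 14 and fell by 3.49 ± 0.32 (adjusted p = 3.18e-07). Msx2, a homeobox factor of bone formation, stood at 2.94, 1.00 and 3.51 CPM on day 1 against 0.0608, 0.212 and 0.216 CPM on day 14 and fell by 3.89 ± 0.64 (adjusted p = 1.17e-04). Sox9, the master factor of cartilage, stood at 24.3, 36.3 and 21.2 CPM on day 1 against 14.2, 15.5 and 14.2 CPM on day 14 and fell by 0.90 ± 0.21 (adjusted p = 0.00234). For these 3 genes all libraries of day 14 were below those of day 1. Phospho1, a phosphatase of matrix vesicles, stood at 1.11, 0.723 and 1.12 CPM on day 1 against 0.365, 0.424 and 0.216 CPM on day 14 and fell by 1.57 ± 0.47 (adjusted p = 0.0106, or 0.0611 without KO day 14 replicate 3). Runx2, the master factor of bone, stood at 97.6, 86.3 and 101 CPM on day 1 against 86.3, 88.9 and 91.1 CPM on day 14, overlapped between the days and was not called (-0.10 ± 0.14, adjusted p = 0.589). Spp1, osteopontin, an acidic protein that binds mineral, stood at 573, 433 and 608 CPM on day 1 against 3345, 3074 and 2978 CPM on day 14, a rise of 2.54 ± 0.11 (adjusted p = 1.45e-10). Col10a1, the collagen of hypertrophic cartilage, fell by 2.73 ± 0.51 (adjusted p = 3.35e-04). Sp7 and Bglap had at most 3 and 2 counts in any KO library and were not tested.

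Of 7 inhibitors of calcification tested, 5 rose and 2 fell, with a median of 1.07 that was -0.03 when genes of low counts were kept. Enpp1, which makes pyrophosphate from ATP, stood at 4.39, 3.39 and 4.29 CPM on day 1 against 239, 229 and 223 CPM on day 14, a rise of 5.84 ± 0.33 (adjusted p = 1.51e-09). Ank, which exports pyrophosphate or ATP, stood at 126, 127 and 109 CPM on day 1 against 249, 255 and 259.7 CPM on day 14, a rise of 1.07 ± 0.088 (adjusted p = 8.94e-08). Mgp, matrix Gla protein, stood at 3.61, 5.56 and 3.36 CPM on day 1 against 35.4, 44.9 and 42.8 CPM on day 14, a rise of 3.30 ± 0.18 (adjusted p = 9.00e-10). Ggcx, the carboxylase that activates it, rose by 0.92 ± 0.087 (adjusted p = 3.95e-07). All of these were higher in every library of day 14. Tnfrsf11b, osteoprotegerin, stood at 4.55, 3.78 and 2.73 CPM on day 1 against 0.730, 0.565 and 1.35 CPM on day 14 and fell by 2.02 ± 0.33 (adjusted p = 1.01e-04). Nt5e, which degrades AMP to adenosine, stood at 26.9, 20.4 and 28.0 CPM on day 1 against 11.4, 8.54 and 7.33 CPM on day 14 and fell by 1.47 ± 0.29 (adjusted p = 5.32e-04).

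Phosphate handling rose in 5 of 7 and fell in 1, with a median of 0.34. Stc1, stanniocalcin, stood at 1.55, 0.779 and 2.29 CPM on day 1 against 87.9, 45.8 and 82.8 CPM on day 14, a rise of 5.52 ± 0.37 (adjusted p = 9.33e-09). Of the sodium-phosphate carriers, Slc20a2 stood at 62.2, 75.3 and 58.7 CPM on day 1 against 97.0, 92.5 and 93.2 CPM on day 14, a rise of 0.53 ± 0.087 (adjusted p = 1.09e-04), and Slc20a1 was not called (-0.17 ± 0.097, adjusted p = 0.147). The exporter Xpr1 rose by 0.21 ± 0.082 (adjusted p = 0.0409). Without KO day 14 replicate 3, 3 members rose, and without KO day 1 replicate 2 or KO day 14 replicate 1, 2 fell. In WT, Alpl rose by 8.30 from 3 counts over day 1, Mgp and Spp1 had changes of -4.39 and -1.33, and Enpp1 -0.34 (adjusted p = 0.376). The differences from WT were -11.79 for Alpl, 7.69 for Mgp, 3.87 for Spp1 and 6.17 for Enpp1, and all 4 were called.

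In BMP and TGF-beta signalling 12 of 27 members rose and 10 fell, with a median of 0.04, or -0.04 with library size alone. Bmp4, genes of the Id family that are known targets, and the antagonist noggin were among those that fell. Bmp4 stood at 46.7, 41.5 and 42.1 CPM on day 1 against 5.96, 6.14 and 7.77 CPM on day 14 and fell by 2.71 ± 0.12 (adjusted p = 1.09e-10). Id2 stood at 43.7, 41.8 and 62.5 CPM on day 1 against 7.85, 7.84 and 7.23 CPM on day 14 and fell by 2.69 ± 0.16 (adjusted p = 3.58e-09). Id4, with 4 counts over day 14, fell by 4.85 ± 0.56, and fell by 6.20 without KO day 14 replicate 2. Nog, noggin, which traps BMPs, stood at 7.38, 8.73 and 6.82 CPM on day 1 against 0.365, 0.424 and 0.216 CPM on day 14 and fell by 4.52 ± 0.33 (adjusted p = 2.47e-08). Grem1, gremlin, another BMP antagonist, stood at 108, 88.4 and 106 CPM on day 1 against 1167, 894 and 1029 CPM on day 14, a rise of 3.35 ± 0.10 (adjusted p = 3.74e-12). The 2 antagonists thus moved in opposite directions, each without overlap. Tgfb1 stood at 49.7, 49.3 and 50.7 CPM on day 1 against 82.4, 96.4 and 105 CPM on day 14, a rise of 0.92 ± 0.13, and Tgfb2 at 53.6, 52.2 and 65.3 CPM on day 1 against 18.9, 15.4 and 16.3 CPM on day 14, where it fell by 1.76 ± 0.23 (adjusted p = 2.19e-05 and 1.46e-05). Bmpr1b had 1 count over day 1 and 8 over day 14, a ratio of 9.20 (exact 95% interval 1.23 to 408), and lost its call without KO day 1 replicate 1 or 3 or KO day 14 replicate 1. Its fitted rise of 2.82 ± 0.99 was 4.76 without KO day 1 replicate 2, the library with that count.

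Wnt signalling fell in 7 of 14 and rose in 3, with a median of -0.35. The ligands Wnt4, Wnt5a and Wnt10b fell by 4.31 ± 0.29, 3.76 ± 0.29 and 2.48 ± 0.24 (adjusted p = 1.03e-08, 4.13e-08 and 5.21e-07). Wnt4 stood at 34.4, 34.4 and 44.0 CPM on day 1 against 1.46, 1.76 and 2.37 CPM on day 14. The receptor Fzd1 stood at 21.3, 24.1 and 18.7 CPM on day 1 against 73.2, 90.1 and 90.1 CPM on day 14, a rise of 1.98 ± 0.12 (adjusted p = 3.41e-09), and Ctnnb1, beta-catenin, was not called (-0.10 ± 0.073, adjusted p = 0.250). The other 2 that rose were the co-receptor Lrp5, by 0.41 ± 0.10, and Sfrp1, a secreted antagonist, by 1.35 ± 0.32 (adjusted p = 0.00348 and 0.00236). In the Notch list 4 of 10 fell and 2 rose, with a median of -0.35. Notch3, the receptor of mature smooth muscle, stood at 62.2, 63.8 and 73.9 CPM on day 1 against 134, 159 and 162 CPM on day 14, a rise of 1.19 ± 0.25 (adjusted p = 8.25e-04). The target genes Hey1 and Hey2 fell by 2.83 ± 0.34 and 2.61 ± 0.62 (adjusted p = 4.94e-06 and 0.00232), from 4.27, 4.67 and 5.996 CPM for Hey1 to 0.548, 0.918 and 0.647 CPM.

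In the YAP and TEAD list 7 of 13 fell and 4 rose, with a median of -0.60 and a WT median of 0.72. Yap1, the coactivator itself, stood at 3812, 4032 and 3551 CPM on day 1 against 591, 618 and 658 CPM on day 14 and fell by 2.61 ± 0.081 (adjusted p = 3.74e-12). Birc2, an inhibitor of apoptosis that lies close to Yap1 on chromosome 9, stood at 1654, 1404 and 1872 CPM on day 1 against 197, 172 and 185 CPM on day 14 and fell by 3.15 ± 0.11 (adjusted p = 1.58e-11). Wwtr1, the paralogue TAZ, stood at 114, 123 and 113 CPM on day 1 against 166, 159 and 158 CPM on day 14, a rise of 0.46 ± 0.070 (adjusted p = 5.23e-05). Targets fell in part. Cyr61 and Ankrd1 stood at 337, 349 and 425 CPM on day 1 against 125, 113 and 113 CPM on day 14 and at 973, 899 and 1131 CPM on day 1 against 527, 440.0 and 400.1 CPM on day 14, and fell by 1.66 ± 0.18 and 1.14 ± 0.12 (adjusted p = 1.95e-06 and 1.17e-06), whereas Ctgf was not called (-0.29 ± 0.13, adjusted p = 0.0685).

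Of 19 NR4A and immediate early genes 11 rose and 5 fell, with a median of 0.44. Egr1, a zinc finger factor induced by growth signals, stood at 10.2, 13.3 and 10.5 CPM on day 1 against 109.6, 147 and 165 CPM on day 14, a rise of 3.63 ± 0.16 (adjusted p = 1.53e-10). Egr3 stood at 0.999, 1.67 and 1.61 CPM on day 1 against 19.8, 22.8 and 24.6 CPM on day 14, a rise of 3.96 ± 0.19 (adjusted p = 3.26e-10). Dusp1, the phosphatase that turns off MAP kinases, stood at 57.9, 72.8 and 72.2 CPM on day 1 against 11.4, 13.6 and 15.2 CPM on day 14 and fell by 2.33 ± 0.12 (adjusted p = 7.88e-10). Atf3, a stress factor, stood at 31.3, 44.3 and 32.8 CPM on day 1 against 10.6, 7.20 and 9.06 CPM on day 14 and fell by 2.004 ± 0.20 (adjusted p = 6.81e-07). The days did not overlap for these 4 genes. Fos (-0.40 ± 0.26, adjusted p = 0.207) and Fosb (0.32 ± 0.33, 0.431) were not called.

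The unfolded protein and integrated stress response fell in 8 of 17 and rose in 4, with a median of -0.18. Ddit3, which encodes the death factor CHOP, stood at 144, 163 and 161 CPM on day 1 against 40.0, 41.2 and 42.3 CPM on day 14 and fell by 1.93 ± 0.27 (adjusted p = 2.51e-05). Hspa5, the chaperone BiP, stood at 2029, 1909 and 2409 CPM on day 1 against 1353, 1185 and 1230.0 CPM on day 14 and fell by 0.75 ± 0.098 (adjusted p = 1.16e-05). Calr, calreticulin, stood at 475, 427 and 462 CPM on day 1 against 1079, 1034 and 1041 CPM on day 14, a rise of 1.21 ± 0.077 (adjusted p = 5.77e-09). Each of the 3 separated the days. Atf4 was not called (-0.18 ± 0.14, adjusted p = 0.318).

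Of 12 antioxidant targets of NRF2, 8 rose and 2 fell, with a median of 0.80. Slc7a11, the cystine importer, stood at 34.5, 37.2 and 35.5 CPM on day 1 against 146, 116 and 112 CPM on day 14, a rise of 1.80 ± 0.099 (adjusted p = 1.25e-09). Nqo1, a quinone reductase, stood at 94.4, 79.5 and 100.4 CPM on day 1 against 233, 196 and 225 CPM on day 14, a rise of 1.25 ± 0.095 (adjusted p = 3.86e-08). Txnrd1, thioredoxin reductase, stood at 850.2, 867 and 807 CPM on day 1 against 573, 579 and 579 CPM on day 14 and fell by 0.54 ± 0.061 (adjusted p = 2.54e-06). Gsta4 also fell, by 0.44 ± 0.17 (adjusted p = 0.0351), a call lost without KO day 1 replicate 1 (0.0780) or 3 (0.212) or KO day 14 replicate 2 (0.0971) or 3 (0.0892). Without each of these 4 libraries in turn, 1 member fell in place of 2. Hmox1 was not called (0.02 ± 0.090, adjusted p = 0.877).

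Of 6 genes of organic osmolytes 4 fell and 1 rose. Slc6a12, the carrier of betaine, stood at 27.3, 28.9 and 34.4 CPM on day 1 against 1.22, 1.34 and 1.02 CPM on day 14 and fell by 4.67 ± 0.17 (adjusted p = 1.79e-10), with no overlap. Slc5a3, the carrier of myo-inositol, stood at 196, 163 and 221 CPM on day 1 against 104, 85.8 and 91.1 CPM on day 14 and fell by 1.05 ± 0.11 (adjusted p = 1.75e-06). Nfat5, the factor of the osmotic response, stood at 241, 254 and 241 CPM on day 1 against 364, 438 and 395 CPM on day 14, a rise of 0.70 ± 0.078 (adjusted p = 2.09e-06). Akr1b3 fell by 0.32 ± 0.12 (adjusted p = 0.0366), a call lost without KO day 1 replicate 1, 2 or 3, KO day 14 replicate 1 or 2 or WT day 1 replicate 2 or 3. Without KO day 1 replicate 1 or 2 or KO day 14 replicate 1, 2 members fell in place of 4.

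In bulk RNA fewer cells of a type and less RNA per cell cannot be told apart. Some macrophage markers were at or near 0 at day 14, and others were not. Whether such cells had a part in the rise of the inflammatory genes was not tested. Ptprc, the pan-leukocyte CD45, had 4, 20 and 2 counts at day 1 and 0, 0 and 1 at day 14, and Adgre1 had 0, 8 and 3 and then 1, 0 and 1. Mrc1 had 0 counts in all 6 libraries. The summed level of the 9 macrophage markers was 61.2 to 73.1 CPM at day 1 and 50.4 to 54.3 at day 14, most of it Cd68, which stood at 49.2, 41.7 and 55.0 CPM on day 1 against 31.9, 28.5 and 31.7 CPM on day 14. Of 4 tested, Csf1r rose by 2.50 ± 0.40 (3.17 without KO day 1 replicate 3) and Cd68 fell by 0.66 ± 0.17 (adjusted p = 7.86e-05 and 0.00431). The summed level of 8 endothelial markers was 5.12 to 6.72 CPM and then 7.48 to 8.54, with Pecam1 at 3, 1 and 0 counts and then 12, 7 and 9. Of its 4 tested markers Cdh5 rose by 0.83 ± 0.19 (adjusted p = 0.00157) and the other 3 were not called. The median of the 4 was negative, at -1.26. That list had 2 members called higher without KO day 1 replicate 1, any 1 WT library of day 1 or WT day 14 replicate 2 or 3, and 2 called lower without KO day 1 replicate 2.

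Markers of adventitial fibroblasts summed to 520.1 to 638 CPM at day 1 and 985 to 1082 at day 14. Of 9 tested, 5 rose and 2 fell. Ly6a, which encodes the stem cell antigen Sca-1, stood at 194, 164 and 250.1 CPM on day 1 against 589, 620.4 and 662 CPM on day 14, a rise of 1.62 ± 0.14, and Pdgfra, the receptor of PDGF, at 26.4, 22.4 and 28.1 CPM on day 1 against 72.9, 76.3 and 78.3 CPM on day 14, a rise of 1.56 ± 0.12 (adjusted p = 1.17e-07 and 6.31e-08). Dpt, dermatopontin, had 0 counts at day 1 and 54 over day 14, at least 20.7-fold higher against a floor of 3 counts over the group. Cd34 and Dcn fell by 2.57 ± 0.13 and 1.74 ± 0.21 (adjusted p = 4.56e-10 and 6.35e-06), so the list did not move as a whole. These markers moved with the matrix genes, and their part in that result was not tested. Mesothelial and epithelial markers, 4 of 4 tested, fell, most of their level being Msln, mesothelin, at 339, 341 and 340.3 CPM on day 1 against 75.6, 79.1 and 76.3 CPM on day 14 (-2.14 ± 0.13, adjusted p = 2.41e-09). Their summed level was 359 to 367 CPM on day 1 and 78.7 to 82.5 CPM on day 14. Wt1, also of that list, lost its call without KO day 1 replicate 1 or 3 or KO day 14 replicate 1 or 3, and with limma-voom (adjusted p = 0.132). Schwann cell markers, 3 of 3 tested, fell from a summed 12.3 to 15.9 CPM to 3.53 to 5.84. Among adipocyte markers, whose sum was 352 to 442 CPM and then 1010 to 1177, 2 of 4 tested rose and 1 fell. Lpl, lipoprotein lipase, stood at 374, 316 and 395 CPM on day 1 against 1145, 971 and 1117 CPM on day 14, a rise of 1.58 ± 0.16, and Pparg, the factor of fat cells, at 20.8, 21.7 and 31.5 CPM on day 1 against 6.39, 7.98 and 7.12 CPM on day 14, where it fell by 1.79 ± 0.16 (adjusted p = 6.48e-07 and 1.80e-07). Adipoq and Plin1, which define fat cells, had at most 4 and 6 counts in any KO library. Xist stood at 1663, 1449.7 and 1847 CPM on day 1 against 2433, 2510.0 and 2295 CPM on day 14 and Ddx3y at 0 counts in all 6 libraries.

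The share of genes that rose differed between chromosomes. Chromosomes could be given to 14743 of the 15973 genes (92.3%), by name, from the RefSeq table of GRCm38.p6. Chromosomes 14, 16 and 18 had median log2 fold changes of 0.26, 0.28 and 0.31 in KO. On them 45.1%, 45.3% and 48.1% of genes rose and 18.0%, 18.3% and 15.8% fell, beside 26.9% and 27.9% over all genes. Chromosomes 5, 6 and 10 went the other way, with medians of -0.25, -0.21 and -0.27, and 41.2%, 39.8% and 43.1% of their genes fell. In WT the medians were -0.26, -0.16 and -0.06 for the first 3 and 0.30, 0.02 and 0.09 for the latter 3. The medians are descriptions without a test, and those of most other chromosomes lay within 0.06 of 0.

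**Figure D4:**
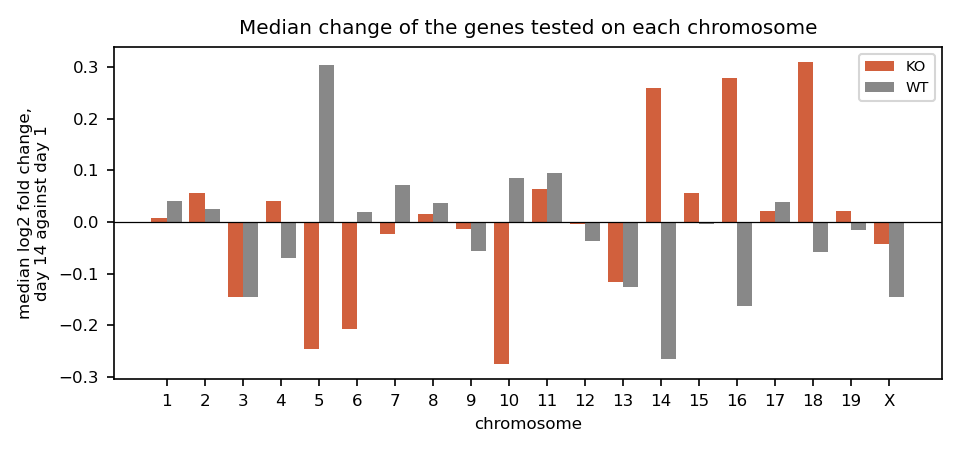
Median log2 fold change, day 14 against day 1, of the genes tested on each chromosome, in KO (red) and in WT (grey). In KO, chromosomes 14, 16 and 18 stand highest, at 0.26 to 0.31, and 5 and 10 lowest, at -0.25 and -0.27.

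Most changes between the days in KO were not shared by WT. The WT contrast called 8294 genes (51.9%). Of 5214 genes called in both genotypes, 1225 moved in the same direction and 3989 in opposite ones, and for all 3989 the difference was itself called. With both changes called in opposite directions by the same fit, a called difference was nearly fixed in advance and adds little. Of 3547 genes called in KO and not in WT, the difference was called for 2618. In all, 6992 of the genes called in KO (79.8%) had a called difference. The difference was called for 9595 genes (60.1%), 4716 higher and 4879 lower in KO. With library size alone in place of TMM scaling, these were 3691 higher and 6050 lower. The KO libraries of day 1 lie closest to the WT libraries of day 14, as given above, and whether an exchange of labels or anything else particular to those libraries has a part in the opposite directions was not tested.

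Among the largest differences above WT, by the rule for named genes, were those of Lcn2, Stc1, Hp and Calcrl. Calcrl, the receptor subunit for adrenomedullin, stood at 4.61, 2.50 and 2.92 CPM on day 1 against 61.0, 61.7 and 66.0 CPM on day 14, a rise of 4.23 ± 0.17, and fell in WT (difference 8.30, adjusted p = 7.11e-13). For Stc1 the difference was 10.30 and for Lcn2 13.54. Those below WT were Slc6a12, Rgs1, Ggt1, Prr9 and Clca3b. Ggt1, gamma-glutamyltransferase, stood at 14.7, 15.6 and 12.4 CPM on day 1 against 0.365, 0.494 and 1.02 CPM on day 14 and fell by 4.45 ± 0.26 in KO, and fell by 5.05 without KO day 14 replicate 3, and rose in WT (difference -12.02, adjusted p = 4.84e-12). Clca3b stood at 17.7, 14.2 and 23.3 CPM on day 1 against 1.22, 1.98 and 1.19 CPM on day 14 and fell by 3.68 ± 0.51, while it rose in WT (difference -10.15). Slc6a12 had 0 counts in WT at day 1, so its difference of -16.36 is a fitted value that depends on the prior count and is no bound.

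**Figure D5:**
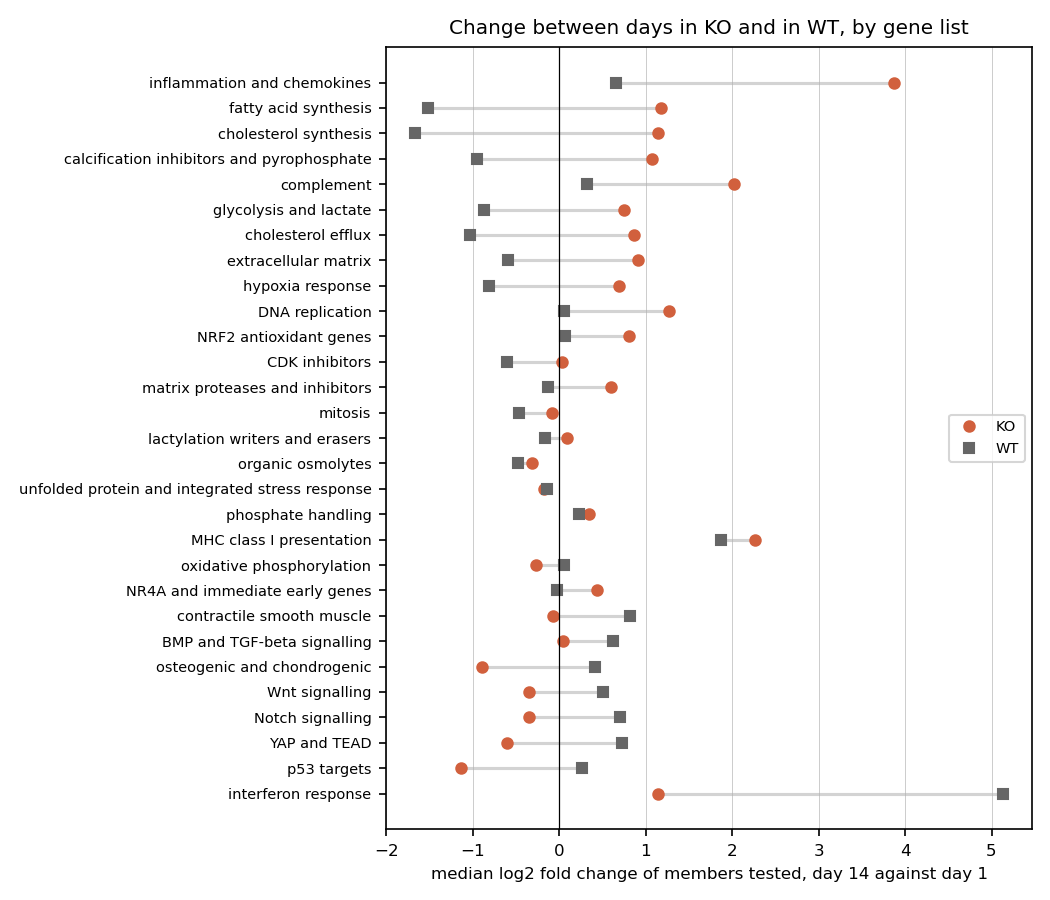
Median log2 fold change, day 14 against day 1, of the tested members of each list in KO (red circles) and in WT (grey squares), joined by a line. The medians for cholesterol synthesis were 1.14 in KO and -1.66 in WT, and those for the interferon response 1.15 and 5.13.

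Not every gene differed. The list of MHC class I presentation had medians of 2.26 in KO and 1.88 in WT. Its difference was called for 5 of 11 members, 4 higher and 1 lower in KO. Over all genes it was called for 60.1%, 29.5% higher and 30.5% lower. Acta2 rose by 1.26 in WT and differed by 0.03 (adjusted p = 0.902). Mylk, the kinase of the myosin light chain, rose by 1.16 ± 0.29 in KO and differed by 0.16 (adjusted p = 0.759). A p that misses the threshold does not show that the genotypes changed alike.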

How the data were processed

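RNA-seq libraries of TRIzol-extracted RNA were made with the NEBNext Ultra kit, per the labels' protocols. The authors deposited 1 table of whole-number read counts per gene for each day, with genome build mm9 per the submitters' processing notes. Aligner, counter, annotation and strandedness: not given in the sources used here. Overlapping and antisense genes cannot be told apart. Columns headed CTR were read as WT. Repeated lines (43 and 53) and 2 names with differing counts were left out, and 24 date-like names in each table are symbols altered by a spreadsheet. The tables share 26728 names, of which 15973 passed edgeR's filterByExpr (minimum count 10).

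All 12 libraries, in 4 groups of 3, were fitted together with edgeR 4.0.16 (R 4.3.3), using TMM scaling and the quasi-likelihood test. Benjamini-Hochberg adjustment was over all genes tested, and a gene was called at an adjusted p below 0.05. Contrasts were day 14 minus day 1 in KO, the same in WT, and their difference. Values after ± are standard errors of the log2 fold change unless named SD, and the interval of a count ratio covers counting error only. The script was tested on simulated counts.

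Named genes were the 8 largest rises and 8 largest falls among called genes that averaged log2 CPM 3 or more and had KO groups without overlap, and the 5 largest differences each way (same level, no overlap rule). To these came up to 3 called members of each list each way, at any level, and a fixed set of 21 genes whatever their result. Predicted, clone and date-like names were left out of the rankings of largest changes and differences. Further list members named in the text, most of them not called or of middle rank, were picked once their values were known. The members and lists were chosen with earlier results of these data known. The 29 pathway and 8 cell marker lists are described by counts and medians. Alternatives were RLE scaling, library size alone, other filters, DESeq2 1.42.0, limma-voom (limma 3.58.1), a replicate block, KO libraries only, and each library left out in turn. Some genes that the rule names are not reported here.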

Additional observations from a re-analysis of the deposited data

Results flagged for a closer look

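The change between the days differed between KO and WT, by the test of the difference itself, for 38 of the 41 largest or fixed genes tested. It differed for 133 of the 154 list members named by the rule, some of which are also among the 41. Over all genes the difference was called for 60.1%. The 5 largest differences each way were picked by this same test, and most other genes for large changes in KO. The counts therefore do not show that named genes differ more often than others. Directions were opposite, and called in both genotypes, for 29 of the 41. Over all 15973 genes tested this held for 3989, and the way the 41 were picked bears on this count too. Differences are KO minus WT on the log2 scale. Of the largest rises in KO, Lcn2 differed by 13.54, Hp by 9.48, Saa3 by 8.30, Enpp1 by 6.17, Ccl11 by 6.03, Cxcl1 by 5.66, Il6 by 5.62 and Cxcl5 by 5.44. Without KO day 1 replicate 3 the values of Lcn2, Saa3 and Il6 were 14.71, 9.19 and 6.27, and that of Hp was 8.85 without WT day 14 replicate 1 and 10.20 without WT day 14 replicate 2. Stc1 differed by 10.30 and Calcrl by 8.30.

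Of the largest falls, Rgs1 differed by -13.92 with 8 counts in WT at day 1 (-14.53 without KO day 14 replicate 1), Prr9 by -11.86 (-12.51 without WT day 1 replicate 1), Otog by -9.66, Stmn4 by -9.45, Adgrg7 by -8.64, Cck by -8.11, Ppargc1a by -6.84 and Cd24a by -6.43. Slc6a12 differed by -16.36, a fitted value against 0 counts in WT at day 1 and no bound. Ggt1 differed by -12.02 with 7 counts in WT at day 1 (-12.64 without KO day 14 replicate 3, -12.62 without WT day 1 replicate 3) and Clca3b by -10.15 (-11.13 without WT day 1 replicate 2).

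Among the fixed genes, Nr4a2 differed by 4.18, Nr4a1 by 2.23 and Nr4a3 by -1.23. Of the mineral genes, Mgp differed by 7.69, Spp1 by 3.87, Sox9 by -1.51, Tnfrsf11b by -2.72, Phospho1 by -2.75 and Msx2 by -7.28. Alpl differed by -11.79 with 3 counts in WT at day 1 (-11.20 without WT day 1 replicate 2, -12.60 without replicate 3). Myh11 differed by -4.09 on few counts (-5.10 without WT day 1 replicate 2). The glycolytic genes Pfkl, Ldha and Aldoa differed by 2.99, 2.62 and 1.93, and Yap1 and Birc2 by -4.83 and -5.13. Groups of 3 libraries are too small for the test of single outlying libraries. WT day 14 replicate 1, which all these differences use, differed most from its replicates, with a chi-square per gene of 34.7 and 49.9 against 8.93 between the other two.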

How the results depend on the processing

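The counts over all genes stayed within 1.5 times. Genes called in KO numbered 8381 to 9130 under the other settings (8761 as reported) and 7605 (without KO day 14 replicate 3) to 10017 (without WT day 14 replicate 1) when a library was left out. For the difference they numbered 9066 to 10157 and 9030 to 10501, and for WT 7876 to 8452 and 7104 to 9067. DESeq2 called 8899 genes in KO, limma-voom 8665 and a fit of the KO libraries alone 9130. With library size alone 8810 were called, 42.2% of them higher in place of 49.1%, and the median of all genes was -0.09.

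Replicate numbers are shared between the days. Libraries of the same number did not deviate together in KO (correlations of 0.01, 0.04 and -0.04). With 3 libraries in a group, this cannot tell whether libraries of the same number share an animal or culture. With the replicate block 8705 genes were called in KO, 9524 for the difference and 8220 in WT.

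Of 4329 values of named genes under the alternatives, 4289 stayed on their side of the threshold, 37 lost the call, 3 gained it and none changed sign. Counts of list members that left 1.5 times without a library are given beside the lists. With other settings these were members lower in KO: cholesterol synthesis 0 (KO libraries only), glycolysis 0 (1 CPM filter) or 2 (no filter), lactylation 4 and phosphate handling 2 (library size alone), macrophage and adipocyte 2 each (no filter), and smooth muscle 0 (DESeq2-type size factors), 2 (1 CPM filter, replicate block or KO libraries only) or 3 (library size alone or no filter). Endothelial markers higher in KO were 2 with no filter. Medians of lists and of chromosomes moved by more than their spread in 162 cases and did not in 978. With library size alone the medians of chromosomes 14, 16 and 18 were 0.18, 0.20 and 0.23. Those of chromosomes 5, 6 and 10 were then -0.32, -0.29 and -0.35. Some chromosome medians changed sign with that setting, among them that of chromosome 2, at -0.02. The list medians that changed sign were those of contractile genes (0.00 to 0.04), BMP and TGF-beta (-0.04), CDK inhibitors (-0.05 to -0.02) and calcification inhibitors (-0.03). Those of the smooth muscle (0.21 and 0.23), endothelial (0.23) and adipocyte (-0.22) markers also did. Low counts limit the fold changes of Lcn2, Hp, Cfb, Dpt, Bmpr1b and Slc2a3. With limma-voom Cfb stood at 6.71, Dpt at 5.30 and Slc2a3 at -2.65.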
